A study of Mus musculus with 9 samples.

Results

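Contactins and contactin-associated proteins were examined in striatal RNA of mouse embryos. The 10 genes are Cntnap1, Cntnap2, Cntnap3, Cntnap4, Cntnap5a, Cntn1, Cntn3, Cntn4, Cntn5 and Cntn6, and each matched 1 row of the 44886 genes counted. The set was chosen by family membership, with the change of its genes over control already in view: Cntnap3 was known to be lower and Cntnap4 higher in Ebf1 mutants. Differences between mutants and controls are therefore a description for these genes. How many of them pass the threshold used for all genes is given once, as a count from which nothing is read, and only the comparison between the 2 mutants is read as a test.

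Contactins are immunoglobulin-superfamily adhesion molecules held on the neuronal membrane by a lipid anchor. Contactin-associated proteins (Cntnap, also called Caspr) are transmembrane relatives of the neurexins that pair with contactins on the same membrane. Together they bind partners on glia or on other neurons, organize the domains that flank nodes of Ranvier, cluster Kv1 potassium channels, and take part in axon guidance and synapse formation.

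Striatal tissue was taken at E17.5 from individual embryos, 3 per group, and the 9 libraries of polyadenylated RNA were sequenced separately. All embryos came from matings of Ebf1fl/fl females with males that were Ebf1+/- and carried Islet1Cre or Dlx5/6::Cre, so the floxed Ebf1 allele is shared by every group. The groups are Control, Islet1Cre;Ebf1fl/- and Dlx5/6::Cre;Ebf1fl/-, with C57BL/6 given as the background, although per the study's methods the Islet1Cre line was kept on B6D2F1/J. Heterozygous embryos served as controls in the study, and the labels do not state the alleles of each. The Cre drivers differ in reach. Within the striatum Islet1Cre is limited to the direct pathway's projection neurons (dSPN) plus the cholinergic cells, whereas with Dlx5/6::Cre every striatal projection neuron (SPN) and interneuron is a target.

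The promoters of Cntnap3 and Cntn5 are shown because these genes had the lowest mutant values, relative to control, of the set. Both sequences are from RefSeq on GRCm38.p6, run 5′ to 3′ on the minus strand, and carry the first transcribed base in capitals. Cntnap3 is shown for chr13:64903839-64904138 and Cntn5, for the first of its listed windows, for chr9:10904677-10904976.
Cntnap3: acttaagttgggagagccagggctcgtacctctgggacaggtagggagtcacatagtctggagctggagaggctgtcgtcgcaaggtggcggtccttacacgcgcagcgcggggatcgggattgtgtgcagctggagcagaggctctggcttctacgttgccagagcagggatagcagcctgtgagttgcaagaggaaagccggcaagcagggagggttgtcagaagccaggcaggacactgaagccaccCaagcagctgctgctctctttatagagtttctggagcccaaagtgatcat
Cntn5: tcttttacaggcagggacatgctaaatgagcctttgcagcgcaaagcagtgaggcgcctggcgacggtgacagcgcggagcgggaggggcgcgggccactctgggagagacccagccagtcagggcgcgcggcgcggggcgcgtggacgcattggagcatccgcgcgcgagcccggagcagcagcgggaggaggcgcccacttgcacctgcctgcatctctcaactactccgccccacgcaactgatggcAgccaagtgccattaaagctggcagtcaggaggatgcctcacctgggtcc
The windows hold 250 bases before and 50 bases from the start site on. The core of the sequence bound by Ebf proteins, CCCNNGGG, which reads alike on both strands, was in 0 of the 12 windows listed for 7 of the 10 genes. It was in 13.7% of all 32851 promoters of this length in the table. Absence says only that these letters are not in these windows. Promoters of Cntnap1, Cntnap4 and Cntnap5a were not analysed here.

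The libraries held 16.5 to 41.5 M counts assigned to genes, the lowest being Islet1Cre;Ebf1fl/- replicate 3. Levels are given as CPM, the counts per M counts of a library after scaling by TMM (trimmed mean of M-values), and a gene is called at an adjusted p below 0.05 in edgeR's quasi-likelihood test over 16368 genes. Ebf1 itself lay at 264, 470 and 322 CPM in controls 1 to 3, at 507, 459 and 439 CPM in Islet1Cre;Ebf1fl/- and at 392, 434 and 506 CPM in Dlx5/6::Cre;Ebf1fl/-. Counts cover the whole gene and reads of single exons were not examined, so these values are no check of the genotypes. By immunostaining at E17.5, the study saw no Ebf1 protein in the striatum of either mutant. Control replicate 3 and Islet1Cre;Ebf1fl/- replicate 3 each held counts of Xist (12552 and 4062) together with counts of 4 Y-linked genes (307 and 1369). Control replicate 2 held 4 counts of Xist and 4653 of the Y-linked genes. The Dlx5/6::Cre;Ebf1fl/- embryos held 11851 to 15348 counts of Xist and 0 to 1 of the Y-linked genes. Embryo sex was thus not balanced across the groups, and its part was not tested. Whether the libraries holding both kinds of counts contain material or reads of another embryo was not tested either. Dlx5/6::Cre;Ebf1fl/- replicate 1 stood apart in genes of other cells, with a summed level of 6 cortical excitatory neuron markers of 183 CPM against 31.0 to 95.7 CPM in the other 8 libraries. The 6 generic SPN markers were present in every library, with summed levels of 2842 to 3520 CPM.

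In controls the 10 genes spanned a wide range of levels per length. Cntnap2, the partner of contactin-2 in clustering Kv1 channels, led with 19.9 ± 1.38 CPM per kb of exon (SD, n = 3 here and below). Cntn1, which forms the axonal side of the paranodal junction with Cntnap1, followed with 9.70 ± 1.67 CPM per kb, next to Cntnap3 with 8.91 ± 1.68 and Cntn5 with 6.55 ± 0.802. The remaining 6 genes were clearly lower, from 1.68 ± 0.312 CPM per kb for Cntnap4 and 1.36 ± 0.0718 for Cntn3 down to 0.427 ± 0.146 for Cntnap1, the paranodal partner of Cntn1. Between these came Cntnap5a at 0.923 ± 0.298, Cntn4 at 0.917 ± 0.378 and Cntn6 at 0.761 ± 0.0941 CPM per kb. Neighbours in this order whose control values overlapped were Cntn1 and Cntnap3, Cntnap3 and Cntn5, Cntnap4 and Cntn3, Cntnap5a and Cntn4, and Cntn4 and Cntn6. With the longest transcript as the length in place of all exons, Cntn1 stood at 16.1 CPM per kb and Cntnap4 at 2.17.

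**Figure D1:**
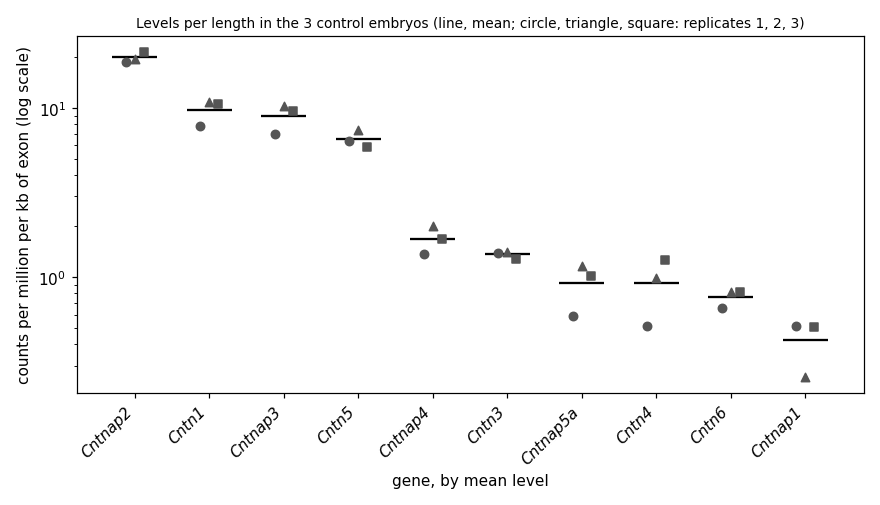
Levels of the 10 genes in the 3 control embryos, as CPM per kb of exon on a log axis, with 1 point per embryo and a line at the mean. Cntnap2 at 19.9 lies above all others, 3 genes lie between 6.55 and 9.70, and the other 6 lie at 1.68 or below.

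Cntnap3, an adhesion protein of the Caspr group, was lower in every mutant embryo than in any control. Its level was 44.7, 65.1 and 60.9 CPM in controls 1 to 3, 19.5, 18.6 and 30.9 CPM in Islet1Cre;Ebf1fl/- and 9.87, 19.7 and 20.3 CPM in Dlx5/6::Cre;Ebf1fl/-. The highest mutant value, 30.9 CPM, was in the smallest library, and the lowest, 9.87 CPM, in the library that stood apart. The log2 fold change over control was -1.32 (SE 0.27) in Islet1Cre;Ebf1fl/-, a level 2.49-fold lower, and -1.77 (SE 0.28) in Dlx5/6::Cre;Ebf1fl/-, a level 3.42-fold lower. With each embryo left out in turn the log2 fold change stayed between -1.58 and -1.18 in the first and between -1.95 and -1.51 in the second. In bulk tissue, fewer cells of a type and less RNA per cell cannot be told apart.

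Cntnap4, a Caspr known from the presynaptic side of interneurons and dopaminergic neurons, was higher in every mutant embryo than in any control. Controls held 8.57, 12.5 and 10.6 CPM, Islet1Cre;Ebf1fl/- embryos 21.7, 23.5 and 20.2 CPM and Dlx5/6::Cre;Ebf1fl/- embryos 22.5, 26.8 and 25.4 CPM. All 6 mutants lay in a narrow band well above the controls. The log2 fold changes were 1.05 (SE 0.14), a 2.06-fold higher level, and 1.24 (SE 0.14), a 2.36-fold higher level. Over the 9 fits that left out 1 embryo the values stayed between 0.92 and 1.19 in the first and between 1.11 and 1.38 in the second. Of the windows of 75 bases in its transcripts, 6.89% lie in an antisense gene at the same place, Gm45904, whose reads could be counted with it, and 0 occur in a gene elsewhere.

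Cntn5, a contactin best known from auditory and sensory circuits, was lower in every mutant embryo. Its level was 29.0, 33.6 and 26.5 CPM in controls, 15.3, 12.1 and 15.6 CPM in Islet1Cre;Ebf1fl/- and 6.35, 8.46 and 9.95 CPM in Dlx5/6::Cre;Ebf1fl/-. The 3 groups formed 3 separate ranges. The log2 fold change was -1.06 (SE 0.17), a level 2.08-fold lower, in Islet1Cre;Ebf1fl/- and -1.84 (SE 0.18), a level 3.59-fold lower, in Dlx5/6::Cre;Ebf1fl/-. With 1 embryo left out they lay between -1.13 and -0.94 and between -2.01 and -1.69. Of its windows of 75 bases, 3.27% lie in the antisense gene Gm32710 and 0 in a gene elsewhere.

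Cntn3, a contactin that binds the receptor phosphatase Ptprg, had 9.36, 9.52 and 8.61 CPM in controls, 5.03, 5.30 and 4.34 CPM in Islet1Cre;Ebf1fl/- and 4.09, 7.58 and 6.28 CPM in Dlx5/6::Cre;Ebf1fl/-. Neither mutant group overlapped the controls. The log2 fold changes were -0.90 (SE 0.21) and -0.61 (SE 0.21). Cntn4, an axon-guidance contactin that binds Ptprg and the amyloid precursor protein, ran the other way. It had 4.33, 8.33 and 10.7 CPM in controls, 11.6, 10.7 and 12.4 CPM in Islet1Cre;Ebf1fl/- and 9.33, 13.2 and 12.4 CPM in Dlx5/6::Cre;Ebf1fl/-. Over control it differed by 0.57 (SE 0.27) and 0.58 (SE 0.27) on the log2 scale, and it overlapped the controls in Dlx5/6::Cre;Ebf1fl/-. In Islet1Cre;Ebf1fl/- it did not, but by a margin too small to show, control 3 and the lowest mutant both being at 10.7 CPM.

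The other 5 genes overlapped the controls in both mutants. Cntnap2 had 192 to 220 CPM in controls, 188 to 204 in Islet1Cre;Ebf1fl/- and 163 to 222 in Dlx5/6::Cre;Ebf1fl/-. Cntn1 had 73.4 to 101, 85.0 to 88.4 and 51.7 to 107 CPM in the same order. These most abundant genes, per length, had log2 fold changes from -0.09 to -0.02. Cntn6, a contactin reported as a Notch1 ligand, had 4.24 to 5.33, 4.08 to 5.59 and 4.34 to 5.8 CPM, with log2 fold changes of 0.01 and -0.00 (SE 0.20 and 0.19). Cntnap1 had 1.51 to 3.01, 2.02 to 2.61 and 1.67 to 2.87 CPM. At these levels its log2 fold changes of -0.15 and -0.07 each had an SE of 0.31, so small differences were not detectable. Cntnap5a, which has 2 close relatives in the mouse, had 6.44 to 12.7, 11.6 to 13.3 and 4.92 to 21.8 CPM. Its widest group was Dlx5/6::Cre;Ebf1fl/-, where replicate 1 had the lowest and replicate 2 the highest value of all 9 embryos.

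**Figure D2:**
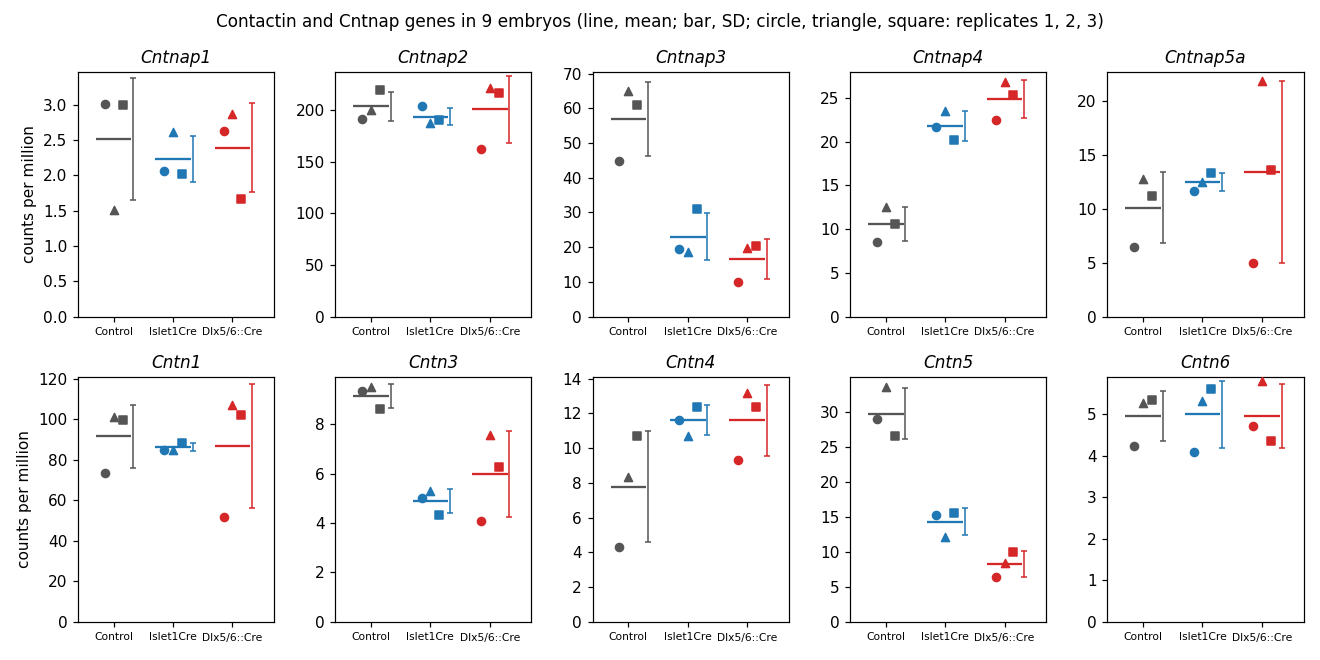
Level in CPM of the 10 genes in the 9 embryos, 1 panel per gene with its own axis from 0, with the mean as a line and the SD as a bar. Cntnap3, Cntn5 and Cntn3 lie below the controls in all 6 mutants and Cntnap4 lies above them.

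Counted together, 2 of the 10 genes were called in Islet1Cre;Ebf1fl/-, 1 higher and 1 lower, where 0.971% of all genes tested were called. In Dlx5/6::Cre;Ebf1fl/-, 3 of the 10 were called, 1 higher and 2 lower, where 2.39% of all genes were called. Mutants and controls did not overlap for 5 of the 10 genes in the first comparison, beside 15.2% of all genes, and for 4 of the 10 in the second, beside 21%. Since these contrasts were in view when the genes were chosen, nothing is read from these counts or from how they change between mutants. The median log2 fold change of the 10 genes was -0.08 and -0.05, and that of all genes tested -0.00 and 0.01. Both comparisons share the 3 control embryos. In either mutant the 10 values lay on both sides of 0.

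The comparison between the 2 mutants was not used to choose the genes. Over all genes tested, 0 (0%) were called by edgeR, 844 had an unadjusted p below 0.05, and DESeq2's Wald test called 18. None of the 10 genes was called by edgeR, with adjusted p from 0.868 to 0.997, and DESeq2 called 1, Cntn5. The largest difference was that of Cntn5, lower in Dlx5/6::Cre;Ebf1fl/- than in Islet1Cre;Ebf1fl/- by a log2 difference of -0.79 (95% interval -1.17 to -0.40, adjusted p = 0.868 by edgeR and 0.0218 by DESeq2). Its 3 values in the former were all below the 3 in the latter, and it was the 1 gene of the 10 whose mutant groups did not overlap, beside 10.4% of all genes. For Cntnap3 the log2 difference was -0.45 (95% interval -1.06 to 0.15) and for Cntnap4 0.19 (95% interval -0.12 to 0.50), both with an adjusted p of 0.868 by edgeR. With Islet1Cre;Ebf1fl/- replicate 3 and Dlx5/6::Cre;Ebf1fl/- replicate 1 both left out, the difference of Cntnap3 was 0.07. The other 7 genes had log2 differences from -0.01 to 0.29, the last for Cntn3 (95% interval -0.19 to 0.76). These intervals do not show that the mutants were alike. Of the 18 alternatives run, DESeq2 alone called Cntn5, and its difference lay between -0.96 and -0.55 over all of them. The driver, the background of its line and the letters that begin the embryo code differ together between the mutants. They cannot be told apart in this comparison.

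The codes of the embryos begin with IE for all 3 Islet1Cre;Ebf1fl/- embryos and 2 controls, and with D for all 3 Dlx5/6::Cre;Ebf1fl/- embryos and 1 control. Within the IE codes the log2 ratio of mean CPM was -1.26 for Cntnap3, 1.05 for Cntnap4, -1.13 for Cntn5 and -0.95 for Cntn3. Within the D codes, with a single control, it was -1.88, 1.23, -1.68 and -0.53 for the same genes. None of these 4 genes overlapped within either code, but Cntnap1 also lay below the single D control in all its mutants (log2 ratio -0.33). The share of all genes without overlap within a code was not computed, so nothing is read from this. Cntn4, by contrast, had a log2 ratio of 0.87 within IE and 0.12 within D, where it overlapped its control.

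A further 3 genes of the family were counted, Cntn2, Cntnap5b and Cntnap5c. Cntn2, an axonal contactin of early fibre tracts and the partner of Cntnap2, had 142, 108 and 86.5 CPM in controls, 55.0, 51.0 and 62.6 CPM in Islet1Cre;Ebf1fl/- and 94.7, 64.6 and 65.3 CPM in Dlx5/6::Cre;Ebf1fl/-. It fell in Islet1Cre;Ebf1fl/- (log2 fold change -1.0, SE 0.19, adjusted p = 0.0384 by edgeR) without overlap of the groups, whereas in Dlx5/6::Cre;Ebf1fl/- the value was -0.58 (SE 0.19, adjusted p = 0.161 by edgeR, 0.0201 by edgeR with no filter on low counts and 0.0432 by DESeq2). The first call was lost without control 1 or 2 (adjusted p = 0.141 and 0.0988 by edgeR) and without any of Islet1Cre;Ebf1fl/- replicates 1 to 3 (adjusted p = 0.185, 0.222 and 0.0755). The second was gained without Dlx5/6::Cre;Ebf1fl/- replicate 1 (log2 fold change -0.79, adjusted p = 0.0269 by edgeR), but not with the embryo code as a covariate. Within the D codes, with a single control, the log2 ratio of Cntn2 was -0.21 and the groups overlapped. Between the mutants the difference of 0.42 had an adjusted p of 0.868 by edgeR. Cntnap5b, a relative of Cntnap5a, had 12.3 to 23.5 CPM in controls, 29.6 to 34.9 in Islet1Cre;Ebf1fl/- and 25.7 to 38.6 in Dlx5/6::Cre;Ebf1fl/-. Neither mutant group overlapped the controls, and edgeR called the gene in neither (log2 fold change 0.70 and adjusted p = 0.313 in the first, 0.78 and 0.125 in the second), whereas DESeq2 called it in the second. Cntnap5c was near 1.5 CPM in controls (1.52 ± 0.209) and was not called.

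**Figure D3:**
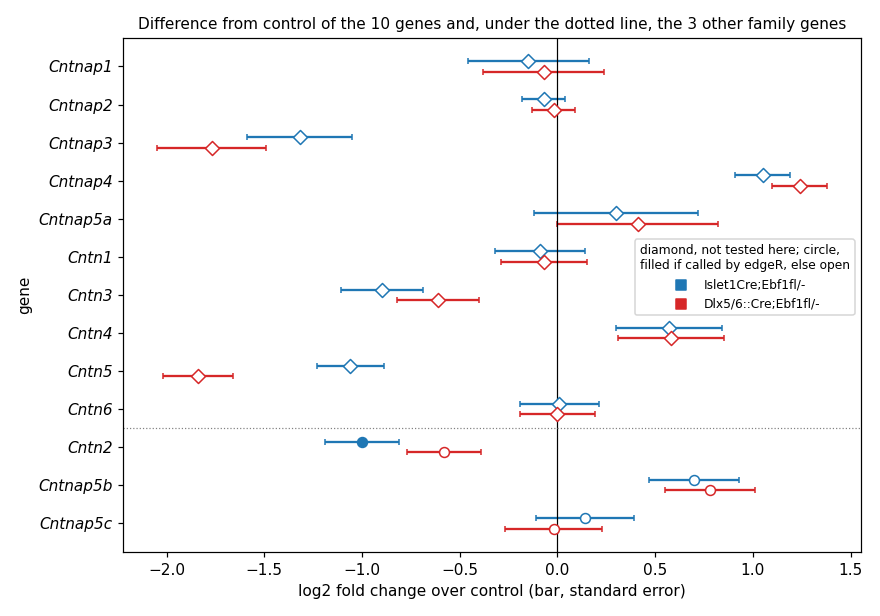
Log2 fold change over control in both mutants for the 10 genes and, under the dotted line, 3 further family genes, with the standard error as a bar, diamonds for the 10 genes and, for the others, circles filled where called by edgeR. Cntnap3, Cntn3, Cntn5 and Cntn2 lie to the left of 0, Cntnap4, Cntn4 and Cntnap5b to the right, and Cntnap2, Cntn1 and Cntn6 at or near 0.

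Partners of the family were taken from 3 lists, drawn up with earlier results of these data known. Their p-values against control are therefore given as a description. Of 13 extracellular and membrane partners, 1 rose in each mutant, 0 fell and 12 were not called, with a median log2 fold change of 0.05 in Islet1Cre;Ebf1fl/- and 0.13 in Dlx5/6::Cre;Ebf1fl/-. Called genes made up 0.470% (higher) and 0.501% (lower) of all genes tested in the first comparison and 1.05% and 1.34% in the second. An unadjusted p below 0.05 was found for 1298 and 2543 of the 16368 genes. The gene that rose was Ptprg, the receptor phosphatase bound by Cntn3, Cntn4, Cntn5 and Cntn6. Ptprg had 42.5, 53.3 and 58.3 CPM in controls, 86.4, 102 and 76.6 CPM in Islet1Cre;Ebf1fl/- and 95.7, 100 and 114 CPM in Dlx5/6::Cre;Ebf1fl/-. Every mutant was above every control. Its log2 fold change was 0.78 (SE 0.13, adjusted p = 0.0250 by edgeR) in the first and 1.01 (SE 0.13, adjusted p = 0.00425) in the second. Within the D codes, with a single control, its log2 ratio was 0.83 and the groups did not overlap. The first call was lost without control 1 or 2 (adjusted p = 0.0930 and 0.0819 by edgeR) or without Islet1Cre;Ebf1fl/- replicate 1 or 2 (adjusted p = 0.111 and 0.137), and the second with the embryo code as a covariate (adjusted p = 0.157 by edgeR).

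Of 9 genes of the Kv1 channel complex, which Cntnap2 and Cntn2 gather on axons, edgeR called 0 in Islet1Cre;Ebf1fl/- (1 at an unadjusted p below 0.05) and 1 fell in Dlx5/6::Cre;Ebf1fl/-, with medians of -0.08 and -0.19. It was Kcna6, a Kv1 channel subunit, with 68.8, 73.1 and 65.3 CPM in controls, 39.3, 38.0 and 48.2 CPM in Islet1Cre;Ebf1fl/- and 25.1, 41.0 and 36.8 CPM in Dlx5/6::Cre;Ebf1fl/-. Both mutant groups lay below the controls. The log2 fold change was -0.73 (SE 0.16, adjusted p = 0.0744 by edgeR) in Islet1Cre;Ebf1fl/- and -1.01 (SE 0.16, adjusted p = 0.00971) in Dlx5/6::Cre;Ebf1fl/-, and adding the embryo code as a covariate removed the latter call (adjusted p = 0.185 by edgeR). DESeq2's Wald test called Kcna6 in Islet1Cre;Ebf1fl/- as well (adjusted p = 0.00170). Within the D codes, with a single control, its log2 ratio was -0.93 and the groups did not overlap. Of 12 cytoplasmic scaffold genes, edgeR called 0 in either mutant, 1 had an unadjusted p below 0.05 in each, and DESeq2 called 0 in Islet1Cre;Ebf1fl/- and 1 in Dlx5/6::Cre;Ebf1fl/-. The largest mean difference was that of Mpp2, a membrane-associated guanylate kinase, at 0.24 in Islet1Cre;Ebf1fl/- (adjusted p = 0.590 by edgeR) and 0.36 in Dlx5/6::Cre;Ebf1fl/- (adjusted p = 0.112), where it was the gene called by DESeq2.

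**Figure D4:**
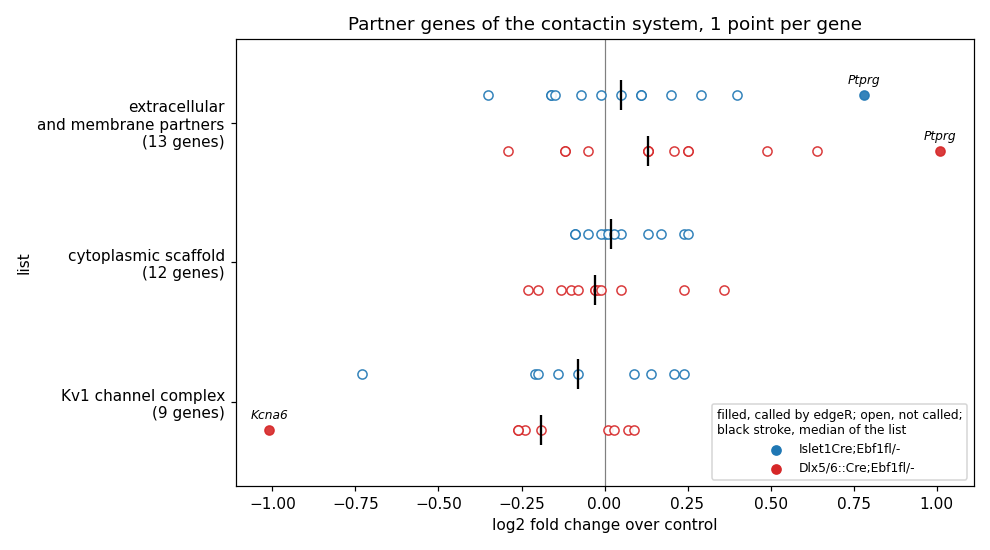
Log2 fold change over control of 13 extracellular and membrane partners, 12 scaffold genes and 9 genes of the Kv1 channel complex, with 1 point per gene, filled where called by edgeR, and a black stroke at each list's median. Ptprg lies to the right in both mutants at 0.78 and 1.01, Kcna6 to the left at -0.73 and -1.01, and the medians lie between -0.19 and 0.13.

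Markers of cell types are set beside these values, and edgeR called some of them in Dlx5/6::Cre;Ebf1fl/- only. Over all 16368 genes tested, 1298 had an unadjusted p below 0.05 in Islet1Cre;Ebf1fl/- and 2543 in Dlx5/6::Cre;Ebf1fl/-. DESeq2 called 395 and 860 genes. The summed level of 5 dSPN markers was 341 to 495 CPM in controls, 374 to 421 in Islet1Cre;Ebf1fl/- and 265 to 329 in Dlx5/6::Cre;Ebf1fl/-, with 0 and 1 of 5 called by edgeR, the latter lower (2 and 5 at an unadjusted p below 0.05, 1 and 2 called by DESeq2). The 5 did not all go one way, with log2 fold changes from -0.86 to 0.67 in Islet1Cre;Ebf1fl/- and from -1.48 to 0.53 in Dlx5/6::Cre;Ebf1fl/-, where 4 lay below every control. Of 6 generic SPN markers, whose sums are given above, edgeR called 0 in Islet1Cre;Ebf1fl/- (4 at an unadjusted p below 0.05, 1 called by DESeq2) and 1, lower, in Dlx5/6::Cre;Ebf1fl/- (adjusted p = 0.0305 by edgeR, 2 called by DESeq2). The sum of 6 GABAergic interneuron markers was 350 to 383, 331 to 385 and 219 to 345 CPM, and that of 6 cortical excitatory neuron markers 33 to 77.9, 31.0 to 59.1 and 78.6 to 183 CPM. Of these, edgeR called 0 of 6 in each list and mutant. In Dlx5/6::Cre;Ebf1fl/-, 4 of the interneuron and 3 of the cortical markers had an unadjusted p below 0.05, and DESeq2 called 2 and 0. In Islet1Cre;Ebf1fl/- both counts were 0 for both lists. Radial glia and astrocyte markers summed to 607 to 708, 533 to 704 and 620 to 1073 CPM, and 6 iSPN markers (projection neurons of the indirect pathway) to 501 to 572, 524 to 607 and 557 to 660 CPM. Microglial markers summed to 73.0 to 80.9, 68.0 to 83.6 and 81.5 to 88.7 CPM. Markers of cholinergic interneurons, the oligodendrocyte lineage and endothelial cells, 6 each, overlapped the controls in their sums in both mutants, from 34.7 to 228 CPM over all libraries. No marker was at 0 in any library. Their part in the values of the contactin genes was not tested.

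The genes whose log2 level most resembled Cntnap3 over the 9 embryos, among 12051 compared, were Klhl13 (Pearson's r = 0.993), Pde7b (r = 0.987) and Gnb4 (r = 0.982). Klhl13, for example, had 324, 392 and 386 CPM in controls, 253, 233 and 277 in Islet1Cre;Ebf1fl/- and 176, 241 and 240 in Dlx5/6::Cre;Ebf1fl/-. It shares with Cntnap3 the lowest value in control 1 among controls and in Dlx5/6::Cre;Ebf1fl/- replicate 1 among mutants. Those most like Cntnap4 were Tmem209 (r = 0.990), Lcorl (r = 0.987) and ENSMUSG00000097348 (r = 0.982), for which no symbol was found. These values are a description over 9 libraries of 3 genotypes, which share genotype and library differences.

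On GRCm38, Cntnap3 spans 167.8 kb from 64736182 to 64903955 of chromosome 13, on the minus strand. Cntnap4 spans 312.7 kb from 112570043 to 112882717 of chromosome 8, on the plus strand, and Cntn5 spans 1243.9 kb from 9660891 to 10904775 of chromosome 9, on the minus strand. Cntn3, Cntn6 and Cntn4 lie within 4.54 Mb of chromosome 6, from 102162655 to 106699310, with Chl1, another adhesion gene of the immunoglobulin superfamily, as the only other protein-coding gene between them. These neighbours had unlike values: the log2 fold changes were -0.90 and -0.61 for Cntn3, 0.01 and -0.00 for Cntn6, 0.57 and 0.58 for Cntn4 and -0.07 and -0.05 for Chl1 in the 2 mutants. Cntnap2 lies on the same chromosome from 45059357 to 47304213 and spans 2244.9 kb.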

How the data were processed

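Striatal RNA of 9 E17.5 embryos was measured by RNA sequencing, with 3 embryos per genotype grouped by their labels. The authors deposited counts per Ensembl gene without normalization. Per the study's methods they filtered reads on length and quality, mapped them with STAR 2.4.0k (mm10), discarded reads with several matches and counted with HTSeq 0.5.3 (DESeq 1.8.3 was used for their tests). Removal of such reads lowers genes with copied stretches: of the windows of 75 bases in the 10 genes, at most 0.313% (Cntnap2) occur in a gene elsewhere. Libraries were stranded, but the strand setting of the counting is not given in the sources used here. Antisense genes absent from the counts (Gm45904 at Cntnap4, Gm32710 at Cntn5) could therefore add reads. Plekhh3, which shares 233 exon bases with Cntnap1, was itself counted, so shared reads could instead be lost as ambiguous.

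Counts of all 9 embryos were fitted in edgeR 4.0.16 (R 4.3.3) with TMM scaling, filterByExpr at a minimum count of 10 and the quasi-likelihood test, with Benjamini-Hochberg adjustment over 16368 genes. SE is the log2 fold change over the square root of F, and intervals are 95%. CPM per kb used the union of exons of GENCODE M21, in which 44133 of 44886 identifiers were found. Promoters matched by symbol for 7 of the 10 genes. The step was tested on simulated data. Every pair of same-genotype embryos differed by more than counting noise (chi-square per degree of freedom at least 10.6), and p-values measure the spread between embryos.

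The 10 genes, the partner and marker lists and the naming rule were chosen with earlier results of these data known. Text names all 10 genes, partner genes called in either mutant or else the one with the largest mean change of each list, and the 3 genes most correlated with Cntnap3 and Cntnap4 at a mean normalized count of at least 100. Genes named for other reasons (Ebf1, Chl1) were chosen after their values were seen. Alternatives were DESeq2 1.42.0 (Wald test, and its size factors in edgeR), no filter and a minimum count of 50, the 6 samples of a comparison alone, the replicate number as a block, a covariate for the letters that begin the embryo code, the longest transcript as length and each embryo left out. Leaving out Islet1Cre;Ebf1fl/- replicate 3 with Dlx5/6::Cre;Ebf1fl/- replicate 1, and these with Control replicate 3, was added after seeing the data.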

Additional observations from a re-analysis of the deposited data

How the results depend on the processing

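Against control, the values of Cntnap3, Cntnap4, Cntn5 and Cntn3 kept their direction in both mutants under every alternative run, as did Cntn4. These fits reuse the same libraries and the contrast was in view, so this is a description and supports nothing. Numbers of calls moved more. In Islet1Cre;Ebf1fl/- against Control, 159 genes were called, 311 with no filter on low counts, 395 with DESeq2, 259 with only the 6 samples of the comparison, 61 with the code prefix as a covariate, 15 to 397 with 1 embryo left out, 333 without Islet1Cre;Ebf1fl/- replicate 3 and Dlx5/6::Cre;Ebf1fl/- replicate 1, and 252 without these and Control replicate 3. Of the 10 genes, 2 were called there, 4 with no filter, with DESeq2, with 6 samples and without the 2 or 3 libraries, and 0 to 4 with 1 embryo left out (0 without Islet1Cre;Ebf1fl/- replicate 1 or 2). Calls of the 10 genes against control support nothing, since that contrast was in view when they were chosen. In Dlx5/6::Cre;Ebf1fl/-, 392 genes were called, and 708, 860, 181 and 32 under the first 4 of these settings, with 143 to 613 when 1 embryo was left out. Of the 10 genes, 3 were called, and 1 with the prefix. Between the mutants 0 genes were called, 13 with no filter, 18 with DESeq2 (1 of the 10 genes), 2 with 6 samples, 1 with the prefix, 0 to 4 with 1 embryo left out, 2 without the 2 libraries and 7 without the 3.

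Small differences between the mutants changed sign. With the prefix they were -0.33 for Cntnap1, -0.12 for Cntnap2, -0.12 for Cntnap5a, -0.17 for Cntn1, -0.74 for Cntn4 and -0.06 for Ptprg. Without the 2 libraries they were -0.06 for Cntnap1, 0.07 for Cntnap3, 0.10 for Cntn6 and 0.01 for Kcna6, and without the 3, -0.06, 0.07, 0.09 and 0.00. With 1 embryo left out they ran from -0.08 to 0.27 for Cntnap1, -0.03 to 0.18 for Cntnap2, -0.42 to 0.50 for Cntnap5a, -0.16 to 0.28 for Cntn1, -0.09 to 0.15 for Cntn4 and -0.14 to 0.07 for Cntn6. With the prefix, each mutant is set against the controls of its own code, so differences between those controls enter the values. The cause was otherwise not tested. With the longest transcript as length, control levels were 2.17 CPM per kb for Cntnap4, 16.1 for Cntn1, 1.73 for Cntn3, 1.48 for Cntn4 and 1.34 for Cntn6.

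Same-numbered embryos correlated in their deviations from the group means between -0.254 and 0.248, and embryos of different number between -0.258 and 0.177. Same-numbered pairs of Control and Dlx5/6::Cre;Ebf1fl/- were all positive (0.248, 0.0869 and 0.224), and those with Islet1Cre;Ebf1fl/- all negative. Whether the numbers pair embryos is not settled by these values. With the replicate number as a block, 143 and 363 genes were called against Control and 0 between the mutants, and 3, 3 and 0 of the 10 genes. Differences between the mutants were then -0.09 for Cntnap5a, -0.05 for Cntn1 and -0.02 for Cntn4. With 3 embryos per group and 16.5 M counts in the smallest library, the lowest gene, Cntnap1, rested on 34 to 111 counts per library.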

Other observations

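Relative to each other, the 10 genes made up different shares of their summed level per kb in the 3 groups, given as mean ± SD over 3 embryos without a test. Cntnap2 accounted for 39.1% ± 2.99 of the sum in controls, 44.4% ± 1.97 in Islet1Cre;Ebf1fl/- and 47.3% ± 3.18 in Dlx5/6::Cre;Ebf1fl/-. Cntnap3 accounted for 17.3% ± 1.58, 8.4% ± 2.24 and 6.08% ± 1.01, and Cntn5 for 12.9% ± 1.81, 7.40% ± 0.790 and 4.38% ± 0.463. Cntnap4 accounted for 3.27% ± 0.329, 8.15% ± 0.911 and 9.70% ± 1.53. In controls Cntnap3 thus held a larger share than Cntnap4 in the mean, whereas in Dlx5/6::Cre;Ebf1fl/- Cntnap4 held the larger. Shares of one sum depend on each other.

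Among the extracellular partners, Notch1 and Tnc had their highest value in Dlx5/6::Cre;Ebf1fl/- replicate 1. Notch1, a receptor of neural progenitors, had 82.4 CPM there and 25 to 32.4 CPM in the other 8 libraries. Tnc, an extracellular matrix protein of progenitors, had 163 CPM there and 48.3 to 99.5 CPM elsewhere. Tnr, a matrix protein bound by Cntn1, had log2 fold changes of 0.40 and 0.49 over control, with every mutant above every control, and edgeR called it in neither (adjusted p = 0.282 and 0.0827), while DESeq2 called it in Dlx5/6::Cre;Ebf1fl/-. These 3 genes were chosen after their values were seen.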
